A study of Danio rerio with 13 samples.

Results

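The comparison described here sets hearts of zebrafish embryos that received a control morpholino against hearts of embryos that were not injected, and so addresses what the injection itself leaves in heart RNA. The members are 5 of the 13 arrays of the series, taken from the titles of the samples: control morpholino replicates 2 and 3, and uninjected replicates 1, 2 and 3. Heart RNA taken 3 days after fertilization was hybridized to Affymetrix zebrafish arrays, each sample on an array of its own with a single label. The other 8 arrays hold hearts of embryos injected with a morpholino against atg5 (3 arrays), becn1 (3) or atg7 (2), genes that autophagy needs, and serve here to estimate the spread.

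Control morpholino embryos carried an oligonucleotide that, per the labels' protocols, was injected when the embryo was 1 cell, and whose sequence and dose are not given in the sources used here. Uninjected embryos carried none: the growth text, which is the same for every sample, speaks of injection, and the titles set these embryos apart. No strain, transgene or mutant allele is named for either group. In both, hearts were purified out of whole embryos, and 5 ug of total RNA gave the labelled cRNA. The labels name biological replicates but no number of embryos per sample, so each p-value reflects only how far these preparations differ among themselves.

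Morpholinos are nuclease-resistant antisense molecules that pair with an RNA and block its translation or its splicing, and a control morpholino is chosen to have no target in the animal. Injection by needle wounds the egg at its earliest stage, and in zebrafish morpholinos are known to cause cell death and to switch on interferon-stimulated genes apart from their intended target. The heart at 3 days is a beating, looped organ with an atrium, a ventricle and a small outflow tract, its cardiomyocytes lined by endocardium, and a heart preparation can bring along blood and fragments of skin, eye, muscle, liver or yolk.

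The table held 15502 probe sets after 115 Affymetrix controls were left out, and 10307 of them (66.5%) passed a filter on weak signal. Levels below are log2 intensities after quantile normalization over the 13 arrays, so that a difference of 1 is 2-fold. A level of 4 is an intensity of 16, under which signals are counted as weak here. The main fit used such signals without a floor. Differences are control morpholino minus uninjected, with the standard error (SE) of limma's fit to all 13 arrays. The median deposited intensity was 51.2 and 32.4 on control morpholino arrays 2 and 3, against 53.8, 61.7 and 41.4 on uninjected arrays 1, 2 and 3, and control morpholino 3 was the dimmest of the 13. The 3'/5' ratio of the actin control probe sets, which is high where labelled RNA lacks its 5' part, was 28.9 and 29.9 on the control morpholino arrays, against 20.1, 14.2 and 12.0 on the uninjected ones. Those groups do not overlap, with an exact permutation p of 0.2, the smallest that 2 against 3 arrays can give (two-sided, 10 splits). The same ratio for GAPDH was 2.99 and 2.33 against 2.74, 2.34 and 2.52, with an exact permutation p of 0.8. Taken over the middle instead of the 5' probe sets, the GAPDH ratio was 2.28 and 1.82 on control morpholino arrays 2 and 3. It was 1.71, 1.73 and 1.77 on the uninjected arrays, again without overlap (exact permutation p of 0.2). For actin the ratio over the middle probe sets overlapped between the groups, with an exact permutation p of 0.4. The part of RNA quality and of array brightness in the values below was not tested.

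No probe set passed the test between control morpholino and uninjected hearts. The percentage of the 10307 probe sets called at an adjusted p under 0.05 was 0, and the smallest adjusted p was 1 (limma, Benjamini-Hochberg). At an unadjusted p under 0.05 there were 266, or 2.58%, of which 162 were higher and 104 lower in control morpholino hearts, against 515 if no gene differed and all p-values were equally likely. The median SE of a difference was 0.27 and the median confidence interval reached 0.59 to either side (95%). For 7428 probe sets (72.1%) that interval lay within a 2-fold change in both directions, so a larger difference is outside it, while smaller differences, and those of the remaining probe sets, are not bounded in this way. Differences of more than 2-fold were measured for 39 probe sets, 26 higher and 13 lower, and none of them was called.

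**Figure D1:**
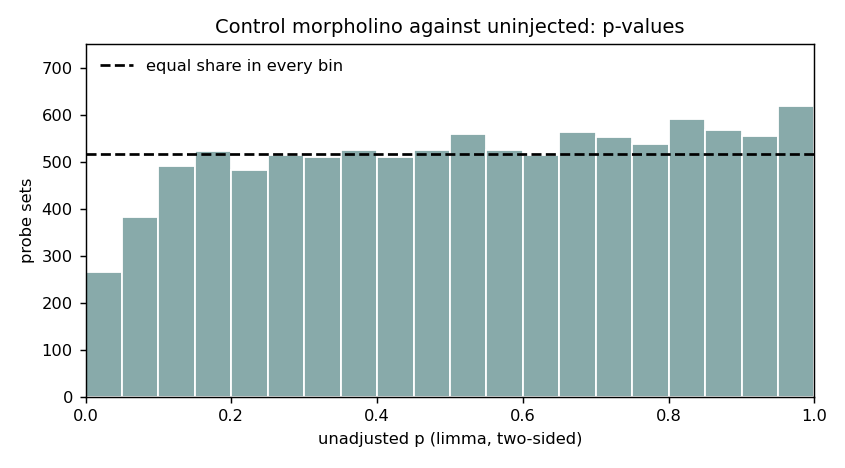
Number of probe sets (vertical axis) in each bin of unadjusted limma p (horizontal axis, bins of 0.05) for control morpholino against uninjected hearts. The lowest bin holds 266 probe sets, below the 515 of an equal share in every bin (dashed line).

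Across all probe sets, 1127 (10.9%) had both control morpholino arrays above all 3 uninjected arrays, and 750 (7.28%) had both below. With 1 probe set for each of 6671 genes, the shares were 13.3% above (885 genes) and 6.25% below (417 genes), and 56.2% of genes had a positive difference, with a median of 0.04. Counts of genes whose groups do not overlap are read below against 13.3% and 6.25%. With an array left out or without normalization these shares differ and are given beside the count.

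In 2 pairs a control morpholino array resembled an uninjected array more closely than arrays within either group resembled each other. Control morpholino 2 was closest to uninjected 1 of all 12 other arrays (Pearson r = 0.973 across probe sets), and control morpholino 3 to uninjected 2 (r = 0.979). Between control morpholino 3 and uninjected 2 only 158 probe sets differed at least 2-fold, and between control morpholino 2 and uninjected 1 there were 248. Within the control morpholino group 518 differed, and within the uninjected group 845, 777 and 418. The first principal component of the 5 arrays, with 44.7% of their variance, placed control morpholino 3 and uninjected 2 at 24.7 and 27.7, and control morpholino 2, uninjected 1 and uninjected 3 at -13.2, -27.2 and -12.0. Each end of this component thus held arrays of both groups. These correlations are across probe sets of shared normalization and describe the arrays only.

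**Figure D2:**
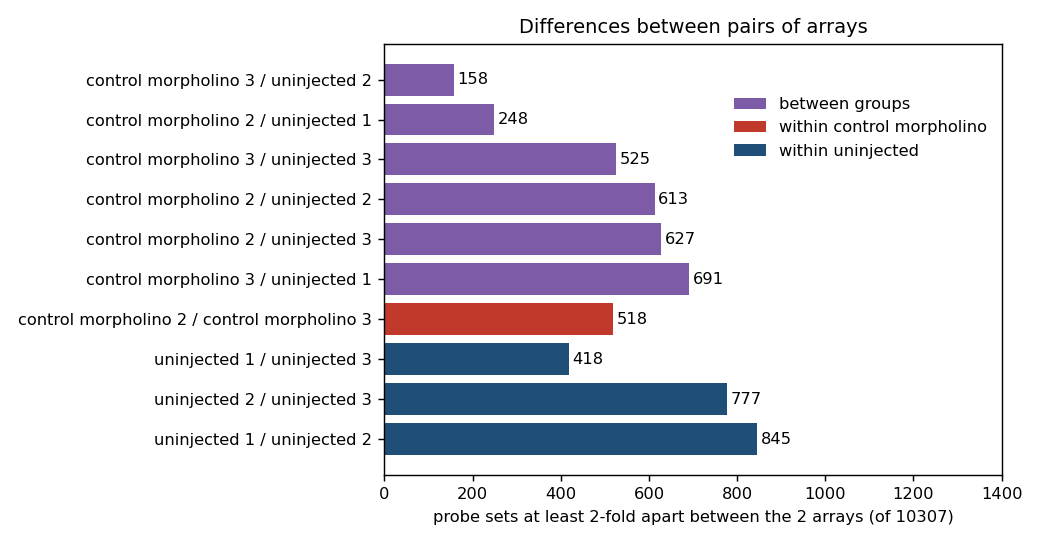
Number of probe sets at least 2-fold apart (horizontal axis, of 10307) for each pair of the 5 arrays, between groups (purple), within control morpholino (red) and within uninjected hearts (blue). The 2 smallest counts, 158 and 248, are pairs of a control morpholino with an uninjected array.

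Several of the genes that varied most between the 5 arrays belong to tissues other than the heart or to blood, and in them the groups overlapped. Among 6412 genes with a level of at least 4 on all 5 arrays, 79 spanned more than 4-fold between arrays, and 1 of these 79 had groups that did not overlap, against 1252 of all 6412 (19.5%, both directions). That gene was kdm4b, a histone demethylase, at 5.14 and 6.31 in control morpholino hearts, against 6.96, 6.45 and 7.43 in uninjected hearts. By contrast rpe65a, an enzyme of the retinal pigment epithelium's visual cycle, stood at 8.38 and 5.09, against 8.86, 4.40 and 5.89. The complement gene c3a.1, made by the liver, was at 8.10 and 4.92 in control morpholino hearts, against 8.46, 5.2 and 5.69 in uninjected hearts. For both genes control morpholino 2 and uninjected 1 were high and the other 3 arrays lower. In such a bulk preparation fewer cells of a type and less RNA per cell cannot be told apart.

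The order of arrays differed between tissues. Of 43 liver and yolk genes, 32 were highest on uninjected 1, and their mean level was 8.59 and 7.36 in control morpholino hearts, against 8.73, 7.64 and 7.33 in uninjected ones. Fibrinogen beta (fgb) was also highest on uninjected 1 but lowest on control morpholino 3, at 8.44 and 6.80, against 8.81, 7.17 and 6.94. Skeletal muscle genes averaged 8.32 and 7.31 against 8.89, 7.59 and 8.45, and 25 of their 34 members were lowest on control morpholino 3. The fast muscle calcium pump atp2a1 was at 9.79 and 7.89 in control morpholino hearts, against 10.75, 8.08 and 9.71 in uninjected hearts. Retina genes averaged 8.47 and 7.89 against 8.68, 7.44 and 8.40, and 24 of 27 were lowest on uninjected 2. Lens genes, with 3 members kept, averaged 10.2 and 9.13 against 8.79, 9.45 and 10.5. Retina, lens and liver lists held no member whose groups did not overlap, with 27, 3 and 43 genes kept. Skeletal muscle held 1 of 34 (2.94%, below), the myosin light chain myl1. It was at 6.92 and 6.22 against 7.91, 6.92 and 7.38, with control morpholino 2 (6.9215) and uninjected 2 (6.9234) nearly tied. Over all genes 13.3% lay entirely above and 6.25% entirely below. The median difference of the muscle list was -0.50, and it was -1.08 without control morpholino 2 but 0.04 without control morpholino 3.

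Exocrine pancreas genes averaged 6.19 and 6.44 in control morpholino hearts, against 6.89, 7.31 and 5.64 in uninjected hearts, with 14 of 16 members lowest on uninjected 3. Intestine and pronephros genes averaged 7.27 and 6.77 against 7.46, 7.24 and 6.81, neuron and glia genes 8.31 and 8.18 against 8.48, 7.97 and 8.36, and cartilage and neural crest genes 7.04 and 7.0 against 7.39, 6.82 and 7.12. In all 4 of these lists the mean levels of the groups overlap. Entirely below were 1 pancreas (6.25%), 2 cartilage (6.06%) and 1 neuron gene (1.89%), against 6.25% of all genes. Entirely above was 1 neuron gene (1.89%), against 13.3%. Differences were negative for 13 of 16 pancreas, 15 of 18 intestine, 23 of 33 cartilage and 28 of 53 neuron genes. Defining markers rho (retina), mipb (lens), vtg1 (yolk), acta1b (muscle), ctrb1 (pancreas), cyt1 (skin), col9a1a and acana (cartilage) had no named probe set, and cryaa, tp63 and amy2a were below the filter.

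Blood genes varied between arrays as well. The embryonic globin gene hbbe3 had the widest range of the 6412 genes: it was at 8.72 and 10.43 in control morpholino hearts, against 5.00, 9.88 and 6.23 in uninjected hearts. Its difference of 2.54 (SE 1.06) came with overlapping groups, because uninjected 2 lay above control morpholino 2. Another globin, hbbe2, near the top of the scale on every array, was at 12.43 and 12.24 against 12.35, 12.56 and 12.52. The heme synthesis gene alas2 was at 6.89 and 7.83, against 7.03, 8.25 and 7.77. Over 17 erythrocyte genes the median difference was -0.14, with 0 members entirely above and 1 (5.88%, against 6.25% of all genes) entirely below. That median was -0.35 without uninjected 1, with 9 of 17 (52.9%) below, against 11.8% of all genes in that setting. Without uninjected 2 the median was -0.03. Leukocyte genes (17 kept) had a median of 0.14, with 1 (5.88%, against 13.3% of all genes) entirely above and 0 below. The neutrophil peroxidase mpx was at 7.46 and 5.69 in control morpholino hearts, against 7.29, 6.21 and 4.59 in uninjected hearts. The markers lyz, lcp1, coro1a and spi1b were instead higher on control morpholino 3 than on control morpholino 2. Of these, lyz was at 10.77 and 11.16 against 10.66, 10.75 and 11.05, and lcp1 at 4.13 and 5.59 against 4.67, 4.93 and 5.25.

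**Figure D3:**
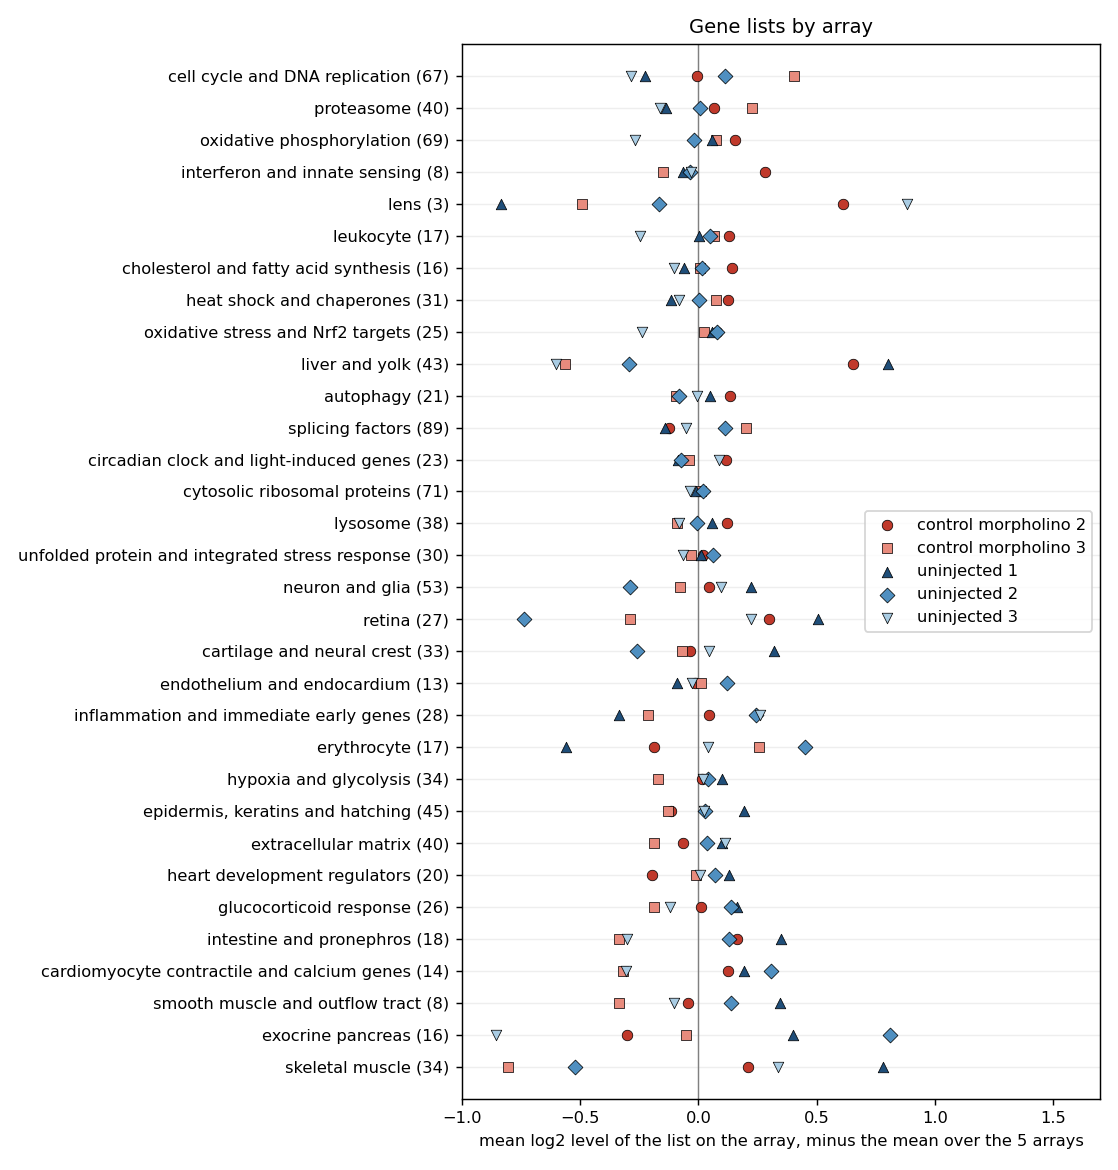
Mean log2 level of each gene list on each of the 5 arrays, minus the list's mean over the 5 arrays (horizontal axis), with the number of genes in parentheses and 1 list left out; red symbols are control morpholino arrays and blue symbols uninjected arrays, and lists are ordered by their median difference. Retina, liver and yolk, skeletal muscle and exocrine pancreas spread over more than 1 log2 unit with both groups mixed, while the 2 proteasome values of control morpholino arrays lie right of all 3 uninjected values.

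The genes with the smallest p, named whether or not they passed, had differences of moderate size.

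The smallest p belonged to tmem230a, which encodes a membrane protein of vesicles. Its level was 7.11 and 6.48 in control morpholino hearts, against 6.0, 5.90 and 6.05 in uninjected hearts, a difference of 0.81 (SE 0.22). snrpf, a core protein of the spliceosomal snRNPs, was at 10.21 and 10.51 against 9.75, 9.60 and 9.41, a difference of 0.77 (SE 0.21). eef1e1, an auxiliary protein of the tRNA synthetase complex, averaged 8.98 ± 0.04 in control morpholino hearts (SD, n = 2) and 8.43 ± 0.03 in uninjected hearts (SD, n = 3). lsm4, of the Lsm ring that binds U6 snRNA, was at 9.29 and 9.33 against 8.75, 8.76 and 8.83. The mitochondrial ribosomal protein gene mrpl32 was at 10.25 and 9.99, against 9.52, 9.63 and 9.23. In each of these the groups do not overlap, which selection by the smallest p on the same arrays favours, and none was called.

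The mitochondrial acyl carrier protein gene ndufab1a differed by 0.72 on the probe set with the smallest p and by 0.27 and 0.32 on 2 other probe sets. mvk, mevalonate kinase of cholesterol synthesis, was at 5.12 and 4.60 in control morpholino hearts, against 3.52, 4.34 and 4.0 in uninjected hearts, near the weak end of the scale. fignl1, an ATPase of DNA repair, was at 5.24 and 5.34 against 4.15, 4.29 and 3.99, and its difference of 1.15 (SE 0.38) was the largest of the 10. The uncharacterized genes zgc:193812 and zgc:136864 completed the 10 with differences of 0.76 and 0.59. A second probe set of zgc:136864 differed by 1.14 with overlapping groups.

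In the opposite direction slc16a12b, a monocarboxylate transporter gene, had the smallest p. It was at 5.55 and 5.09 in control morpholino hearts, against 6.41, 6.16 and 6.07 in uninjected hearts, a difference of -0.89 (SE 0.26). The translation elongation factor gene eef2b was at 12.16 and 12.45 against 12.57, 12.58 and 12.66, a difference of -0.30 (SE 0.09) near the upper end of the scale. The survival gene bcl2l1 differed by -1.25 on a probe set with levels of 3.75 and 3.14 against 4.46, 4.54 and 5.11. Its brighter probe set was at 5.99 and 6.04 against 5.99, 6.19 and 6.08, a difference of -0.07, so the probe sets of this gene disagree. klf6a, a zinc finger factor, was at 7.40 and 8.07 against 8.38, 8.69 and 8.11. serpinb1l3, of the protease inhibitor family, was at 6.03 and 6.57 against 7.39, 7.21 and 6.88. The other 5, plxnb2a.3 (a plexin receptor), ddx54 (an RNA helicase), fbxo11b (an F-box protein), phf20a (a chromatin reader) and dusp7 (a MAP kinase phosphatase), had differences of -1.09, -0.82, -0.79, -0.70 and -0.59.

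**Figure D4:**
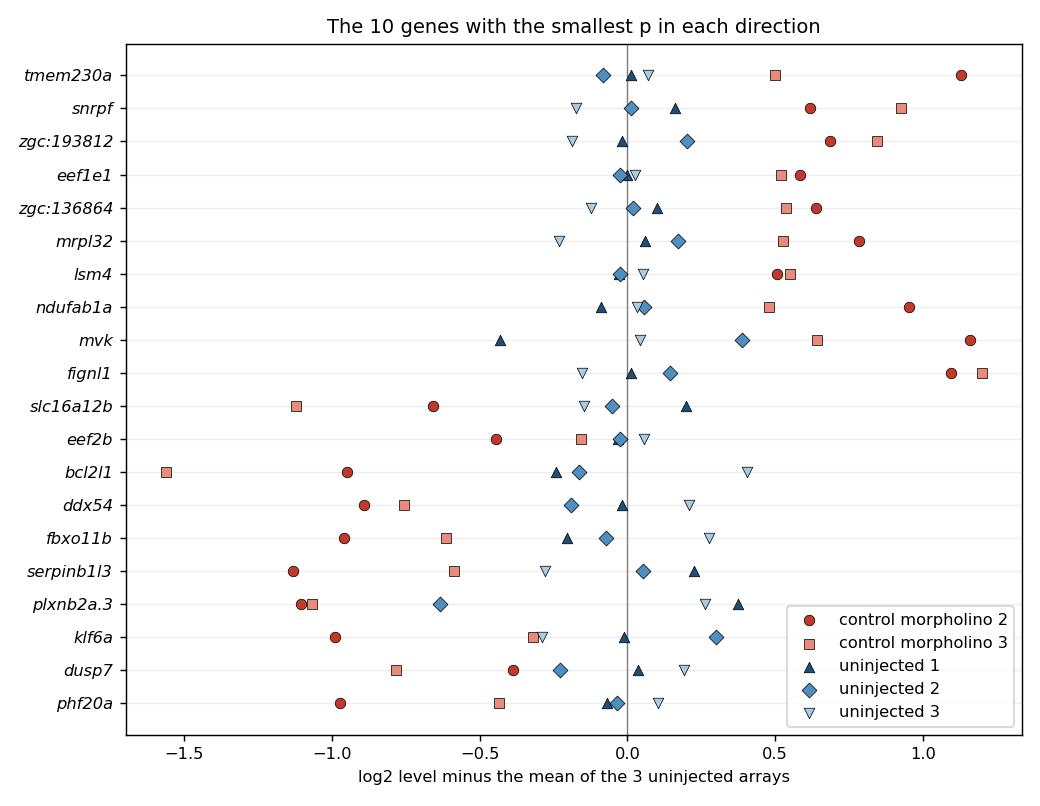
Log2 level of each of the 20 genes with the smallest p, 10 in each direction, on each array, minus the mean of the 3 uninjected arrays (horizontal axis); red symbols are control morpholino arrays and blue symbols uninjected arrays. In every one of the 20 the red symbols lie on one side of all blue ones, and no gene was called. For klf6a control morpholino 3 (8.07) and uninjected 3 (8.11) nearly meet. The 20 were selected by p from these same arrays, which favours such separation.

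Of 38 interferon and innate sensing genes, 16 were on the array and 8 were kept, so this response was measured thinly. Their mean level was 5.74 and 5.31 in control morpholino hearts, against 5.39, 5.43 and 5.43 in uninjected hearts: the control morpholino arrays lay at both ends. The list's median difference was 0.18, with 2 of 8 (25%) entirely above and 0 below. That median ran from 0.08 to 0.30 with an array left out. The interferon-stimulated ubiquitin-like gene isg15 was below the filter. psme2, a proteasome activator subunit that interferon induces, was at 7.08 and 6.81 against 6.34, 6.61 and 6.33, a difference of 0.52 (SE 0.26). The transcription factor irf9 differed by 0.38 (SE 0.36) and irf1b by -0.35 (SE 0.35), both with overlapping groups. irf7, a factor of the antiviral response, was at 5.40 and 5.22 against 5.04, 4.79 and 5.51.

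Inflammation and immediate early genes, which handling and wounding induce within minutes, had a median difference of -0.13 over 28 members, with 0 entirely above and 3 (10.7%) entirely below. The low array here was uninjected 1, which held the lowest level of 16 of the 28. egr1 was at 6.84 and 6.84 in control morpholino hearts, against 5.85, 8.08 and 8.29 in uninjected hearts. junba, of the AP-1 complex, was at 9.35 and 9.28 against 7.85, 10.11 and 10.61, and socs3a, a brake on cytokine signalling, was at 8.96 and 8.50 against 7.33, 9.83 and 9.52. In all 3 the control morpholino arrays lay between the uninjected ones. Without uninjected 1 the list's median difference was -0.44. il1b had no named probe set, and the 3 members entirely below were klf6a, cebpb and cebpd.

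Stress lists were mixed. hsp70.3, an inducible chaperone gene, was high on 1 array alone: it was at 8.97 and 6.61 in control morpholino hearts, against 5.88, 6.56 and 6.74 in uninjected hearts. hspb1, a small heat shock protein gene, was at 7.15 and 7.09 against 6.77, 6.64 and 5.71. The constitutive hspa8 differed by -0.02 (SE 0.13), and the heat shock list (31 genes) had a median of 0.12 with 6 members (19.4%) entirely above and 0 below. Genes of the unfolded protein and integrated stress response (30) had a median of -0.01, with hspa5, the main chaperone of the endoplasmic reticulum, at -0.15 (SE 0.22). hyou1 and edem1, of the same compartment, differed by -0.52 (SE 0.20) and -0.54 (SE 0.21), and the serine synthesis gene psat1 by 0.48 (SE 0.22).

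Oxidative stress and Nrf2 target genes (25) had a median difference of 0.09, with 5 members (20%) entirely above and 2 (8.0%) entirely below. gpx4b, which reduces lipid peroxides, was at 10.10 and 9.83 in control morpholino hearts, against 9.53, 9.62 and 9.07 in uninjected hearts. The peroxiredoxin gene prdx5 was at 9.61 and 9.58 against 9.28, 9.24 and 8.93, while catalase (cat) was at 5.62 and 5.67 against 6.31, 5.69 and 6.15. hmox1a had no named probe set. Hypoxia and glycolysis genes (34) had a median of -0.15, with 2 (5.88%) entirely above, among them the lactate dehydrogenase gene ldhba at 0.26 (SE 0.12), and 5 (14.7%) below, among them tpi1b and ndrg1a at -0.28 (SE 0.16) and -0.30 (SE 0.18). Autophagy genes (21) had a median of 0.04 and lysosome genes (38) of -0.01, and atg5, the target of another group's morpholino, was at 8.22 and 7.87 against 8.18, 7.95 and 7.97.

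Proteasome genes held the highest share of members entirely above, 21 of 40 (52.5%, against 13.3% of all genes), and 0 entirely below, with none called. The proteasome degrades ubiquitin-tagged proteins and consists of a barrel-shaped core of alpha and beta subunits and a cap of ATPases and other subunits. The list's mean level was 9.15 and 9.31 in control morpholino hearts, against 8.94, 9.09 and 8.92 in uninjected hearts, and 37 of 40 members had a positive difference, with a median of 0.25 and a range of -0.27 to 0.67. The groups of the list's level thus do not overlap, with control morpholino 2 just above uninjected 2, as was so for 8 of the 33 lists. Above were also heat shock, oxidative phosphorylation and leukocyte genes, and below were hypoxia and glycolysis, heart development, epidermis and extracellular matrix genes. With 2 against 3 arrays an exact permutation p cannot be under 0.2 (two-sided), so such separation of a level is frequent without a group difference. The median was 0.19 without control morpholino 3 and 0.32 without control morpholino 2. With unnormalized intensities, where the median over all genes was -0.29, it turned to -0.05, or 0.24 above that median. There 0 members lay entirely above, against 0.045% of all genes.

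The positive differences were spread over the parts of the complex. Alpha subunits (7 genes) had a median difference of 0.22, beta subunits (7) of 0.24, cap ATPases (7) of 0.19, other cap subunits (15) of 0.27, and assembly and activator genes (4) of 0.28. The high array was control morpholino 3, with the highest level of 28 of the 40 members. The mean level of the beta subunits overlapped, at 10.39 and 10.66 in control morpholino hearts, against 10.26, 10.41 and 10.20 in uninjected hearts. That of the other cap subunits barely separated, at 8.56 and 8.76 against 8.35, 8.55 and 8.40. psma6a, an alpha subunit, was at 9.83 and 10.02 in control morpholino hearts, against 9.42, 9.50 and 9.11 in uninjected hearts, a difference of 0.58 (SE 0.20). psmd8, of the cap, was at 9.66 and 9.71 against 9.17, 9.38 and 9.23, a difference of 0.42 (SE 0.17). psmd9, an assembly chaperone of the cap counted here with the other cap subunits, differed by 0.67 (SE 0.23) and by 0.33 (SE 0.29) on its second probe set. The difference of pomp, which helps to assemble the core, was 0.30 (SE 0.14). The 3 members with negative differences were the cap subunits psmd1, psmd6 and psmd2, at -0.27, -0.03 and -0.01.

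**Figure D5:**
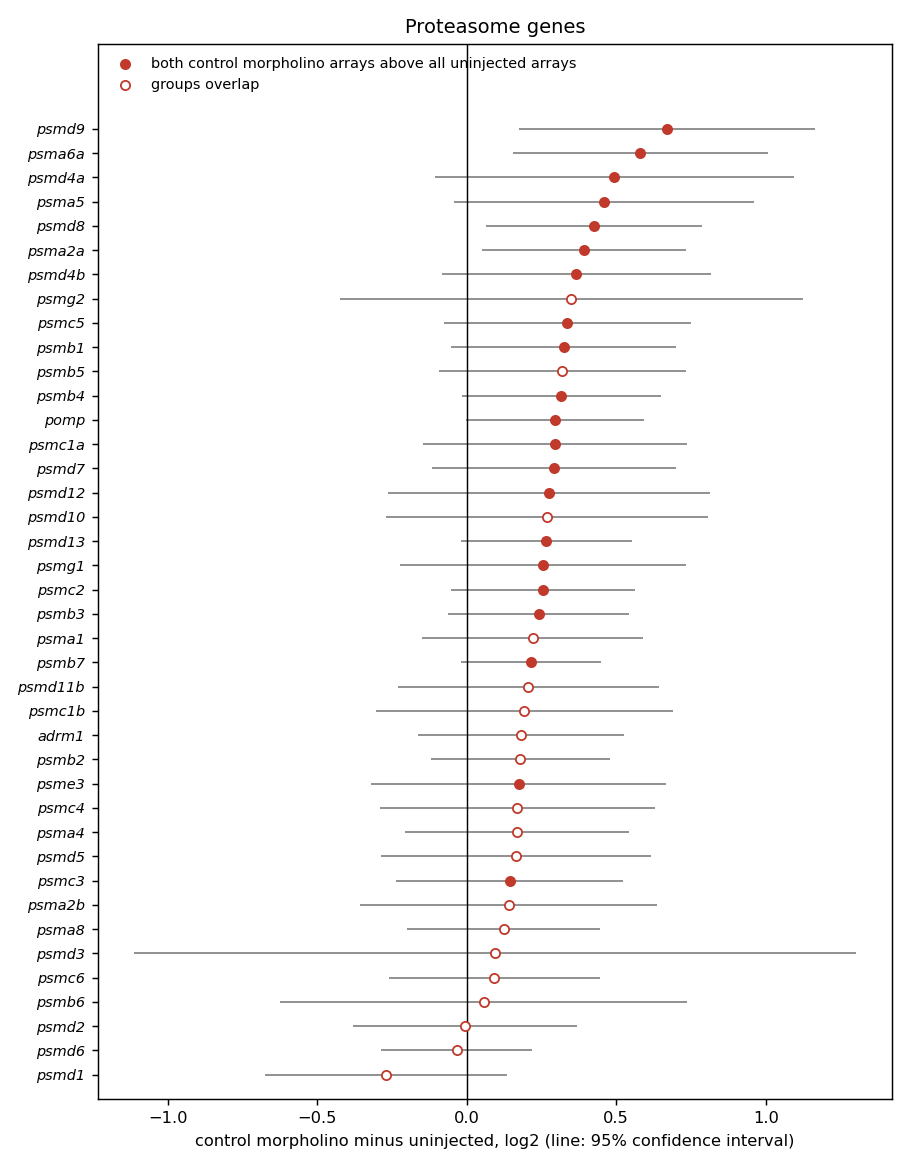
Difference in log2 level, control morpholino minus uninjected (horizontal axis), for each of the 40 proteasome genes kept, with its 95% confidence interval from limma. Filled symbols mark the 21 genes with both control morpholino arrays above all 3 uninjected arrays; most intervals include 0 and no gene was called.

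Oxidative phosphorylation genes, which encode the respiratory chain and ATP synthase of mitochondria, had a median difference of 0.19. Of 69 members 61 were positive, 21 (30.4%) lay entirely above and 2 (2.90%) entirely below. Their mean level was 9.94 and 9.86 in control morpholino hearts, against 9.85, 9.77 and 9.52 in uninjected hearts. Uninjected 3 was the low array, holding the lowest level of 48 of the 69, and without it the median was 0.10. Complex I (29 genes) had a median of 0.26, complex II (4) of 0.19, complex III (8) of 0.15, complex IV (15) of 0.14 and complex V (12) of 0.16. In complex IV 12 of 15 members were positive, and in complex V 8 of 12. The mean levels of complexes I and III did not overlap between the groups, while those of complexes II, IV and V did. For complex IV they were 10.19 and 10.05 in control morpholino hearts, against 10.10, 10.09 and 9.81 in uninjected hearts. With unnormalized intensities the list's median turned to -0.10, which is 0.19 above the median of all genes.

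atp5mf, a subunit of ATP synthase, was at 11.41 and 11.29 in control morpholino hearts, against 11.04, 11.00 and 10.54 in uninjected hearts. The cytochrome oxidase gene cox5ab was at 10.53 and 10.45 against 10.13, 10.32 and 9.88. cox7a2a, of the same complex, was at 11.25 and 11.12 against 10.76, 11.02 and 10.53. In each of these 3 genes uninjected 3 was the lowest array. The members entirely below were ndufs8a and cox4i1l, at -0.24 and -0.40.

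Cell cycle and DNA replication genes had the highest median difference of the 33 lists, 0.34 over 67 genes, 64 of them positive. Of these, 14 (20.9%) lay entirely above and 1 (1.49%) entirely below. The high array was control morpholino 3, with the highest level of 56 of the 67: the list averaged 7.23 and 7.64 in control morpholino hearts, against 7.01, 7.35 and 6.95 in uninjected hearts. Uninjected 2 thus lay above control morpholino 2. The median was 0.15 without control morpholino 3 and 0.58 without control morpholino 2, and 0.01 with unnormalized intensities, or 0.30 above the median of all genes. orc6, of the complex that marks replication origins, was at 6.37 and 6.91 in control morpholino hearts, against 5.64, 6.21 and 5.64 in uninjected hearts, a difference of 0.81 (SE 0.30). rpa2, which coats single-stranded DNA, differed by 0.63 (SE 0.25), and fen1, a nuclease that processes Okazaki fragments, by 0.61 (SE 0.26). The member entirely below was kif20a, a mitotic kinesin, at -0.51.

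Splicing factor genes (89) had a median of 0.04, with 7 (7.87%) entirely above and 0 below. The sign of that median turned on 1 array. Without control morpholino 3 it was -0.05, with 13 (14.6%) above and 34 (38.2%) below, against 28.4% and 19.9% of all genes. Without control morpholino 2 it was 0.22, with 44 (49.4%) above and 2 (2.25%) below, against 28.6% and 18.8% of all genes. lsm6 joined snrpf and lsm4 in this list, at 10.79 and 10.74 in control morpholino hearts, against 10.53, 10.20 and 10.04 in uninjected hearts. Cytosolic ribosomal protein genes (71) had a median of 0.02 and differences between -0.13 and 0.23, with 10 (14.1%) entirely above and 3 (4.23%) below. With arrays scaled by their medians, all 71 were positive, with a median of 0.18 against 0.05 over all genes. With no normalization the median was -0.16 against -0.29 over all genes. In both settings the list thus lay 0.13 above the median of all genes. faua, a ribosomal protein fused to a ubiquitin-like domain, was at 12.52 and 12.50 against 12.27, 12.44 and 12.26, and rpl4, of the large subunit, at 12.75 and 12.78 against 12.93, 12.92 and 12.83. Cholesterol and fatty acid synthesis genes (16) had a median of 0.13, with mvk the member entirely above and aclya, ATP citrate lyase, at -0.34 (SE 0.21) 1 of 2 below.

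Cardiomyocyte genes varied between arrays within the uninjected group. Their list averaged 7.13 and 6.68 in control morpholino hearts, against 7.20, 7.31 and 6.69 in uninjected hearts. On every array the retina, lens, liver, skeletal muscle, epidermis, neuron and erythrocyte lists averaged higher. Leukocyte and exocrine pancreas lists averaged lower on every array, and cartilage and intestine lists were mixed. Levels of different genes do not measure amounts of tissue, and the share of each tissue was not tested. Of the defining cardiomyocyte markers, no named probe set stood for vmhc or myh6, and the other 3 were present on every array. myl7, the cardiac myosin light chain, was at 7.46 and 7.21 in control morpholino hearts, against 6.63, 8.43 and 6.80 in uninjected hearts. cmlc1, a further cardiac myosin light chain, was at 8.79 and 8.22 against 7.84, 9.53 and 7.48, and tnnt2a, cardiac troponin T, at 7.24 and 6.96 against 7.11, 8.07 and 6.88. For all 3 genes uninjected 2 was highest and the groups overlapped. fabp3, the fatty acid-binding protein of heart muscle, was the member entirely above at 11.89 and 11.98 against 11.45, 11.85 and 11.54, a difference of 0.32 (SE 0.13). actc1a, an alpha-actin, was the member entirely below, at -0.39 (SE 0.49). Over 14 contractile and calcium genes the median difference was -0.25, from -0.42 without uninjected 3 to 0.15 without control morpholino 3. With the replicate number as a block it was 0.12, with 9 genes positive, against 4 in the main fit.

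Regulators of heart development (20 genes) had a median of -0.18, with 0 entirely above and 3 (15.0%) below. Those 3 were klf2b and klf2a, which respond to blood flow in endocardium, and mef2d, a myocyte enhancer factor. klf2b was at 7.78 and 7.93 in control morpholino hearts, against 8.33, 8.38 and 8.51 in uninjected hearts, a difference of -0.56 (SE 0.29), and klf2a at 6.40 and 6.49 against 6.68, 6.79 and 6.53. mef2d was at 6.91 and 7.55 against 7.56, 7.60 and 7.84, and its weaker probe set differed by -0.78 (SE 0.34). mef2aa overlapped, at 6.42 and 6.73 against 7.39, 6.55 and 7.53, and hand2 and gata5, early cardiac factors, differed by 0.16 (SE 0.43) and -0.18 (SE 0.47).

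Endothelium and endocardium genes (13) had a median of -0.12 and a mean level of 6.06 and 6.08 in control morpholino hearts, against 5.98, 6.19 and 6.04 in uninjected hearts. Without control morpholino 3 the median was 0.05. cdh5 and fli1a had no named probe set and tie1 was below the filter. kdrl, a receptor for vascular endothelial growth factor, was at 6.91 and 6.74 against 6.91, 7.25 and 6.94. It lay entirely below only by a near tie of control morpholino 2 (6.9059) with uninjected 1 (6.9066). Of the 13 genes 8 had a negative difference, with 1 (7.69%) entirely above and 2 (15.4%) entirely below, against 13.3% and 6.25% of all genes. The member above was lmo2, a cofactor of blood and vessel progenitors, at 5.44 and 5.72 against 5.01, 5.33 and 4.79. One of those below was aplnra, at 5.56 and 5.62 against 5.81, 5.69 and 6.33. Smooth muscle and outflow tract genes (8) were all negative, with a median of -0.29 and 2 (25.0%) entirely below: flna, filamin A, at -0.24 (SE 0.18) and myl9b, a myosin light chain, at -0.22 (SE 0.39). The median ran from -0.46 without uninjected 3 to -0.17 without control morpholino 3, where 2 of the 8 were positive, as without uninjected 1.

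Epidermis, keratin and hatching genes had a median difference of -0.16 over 45 members, with 0 entirely above and 7 (15.6%, against 6.25% of all genes) entirely below. Their mean level was 8.34 and 8.33 in control morpholino hearts, against 8.65, 8.49 and 8.48 in uninjected hearts, which do not overlap. krt97, a keratin, was at 10.99 and 11.16 against 11.58, 11.53 and 11.48, a difference of -0.45 (SE 0.17). muc5.2, a mucin, was at 7.52 and 6.77 against 8.72, 7.45 and 8.78, with uninjected 2 between the control morpholino values. krt4, the surface keratin of larval skin, was at 11.74 and 11.87 against 11.81, 11.81 and 12.09. The median ranged from -0.21 to -0.16 over the 5 arrays left out in turn.

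Extracellular matrix genes had a median of -0.17 over 40 members, with 1 (2.5%) entirely above and 6 (15.0%) entirely below, and their mean level, 7.45 and 7.33 in control morpholino hearts against 7.62, 7.55 and 7.63 in uninjected hearts, did not overlap. The fin fold protein gene and1 (actinodin) was at 10.31 and 10.15 against 11.10, 10.91 and 11.36, a difference of -0.89 (SE 0.35). col1a1a, a chain of type I collagen, was at 10.98 and 10.82 against 11.37, 11.14 and 11.76, and its second probe set differed by -0.62 (SE 0.31). col14a1a, of a fibril-associated collagen, was at 4.50 and 4.77 against 5.73, 4.92 and 5.60. serpinh1b, the collagen chaperone, was the member entirely above, at 8.28 and 8.14 against 8.07, 8.06 and 7.56. Skin and fin genes were on every array of both groups in these heart preparations, and the part of tissue carried along in the values was not tested.

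Glucocorticoid response genes, which answer cortisol, held the highest share of members entirely below, 9 of 26 (34.6%, against 6.25% of all genes), with 0 entirely above and a median of -0.20. Their mean level overlapped, at 6.98 and 6.78 in control morpholino hearts, against 7.13, 7.10 and 6.85 in uninjected hearts. fkbp5, a chaperone of the glucocorticoid receptor and a classical target, was at 7.47 and 7.36 against 8.21, 8.24 and 7.46, so uninjected 3 lay between the control morpholino values. cebpd, a factor of the acute response, was at 6.81 and 6.84 against 7.10, 7.39 and 7.52, a difference of -0.51 (SE 0.23). Positive differences were measured for 9 of the 26 members and negative ones for 17. Among the positive ones gadd45ga was at 9.35 and 8.84 against 8.86, 8.28 and 8.36, a difference of 0.60 (SE 0.32) with overlapping groups. The receptor gene nr3c1 was at 6.78 and 6.82 against 6.94, 7.18 and 7.29, and klf9, another target, at 7.17 and 7.26 against 7.77, 7.85 and 7.41. The differences of the 9 members ranged from -0.77 (pdk2b, a kinase that shuts pyruvate dehydrogenase) to -0.21 (pfkfb4b, of glycolysis control). The median ran from -0.30 to -0.11 with an array left out.

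Clock and light-induced genes (23) had a median of 0.03, with 0 entirely above and 3 (13%) entirely below. per2, which light induces in zebrafish tissues, was at 6.51 and 5.47 in control morpholino hearts, against 4.72, 5.1 and 6.19 in uninjected hearts. cry1a, a light-induced repressor of the clock, was at 4.81 and 4.59 against 5.05, 5.33 and 5.30, and bhlhe40, a repressor of the same circuit, at 7.66 and 7.87 against 8.06, 8.09 and 8.08. per1a had no named probe set. The levels of per2 spread over more than 1 log2 unit within each group.

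The mean of the atg5, becn1 and atg7 morpholino groups (8 arrays), each group with equal weight, was set against the same 3 uninjected arrays. That contrast gave 126 called probe sets (1.22%, limma). Its array atg7 morpholino 2 had the highest 3'/5' ratios of the series, 86.2 for actin and 5.98 for GAPDH. The part of that array in the knockdown values was not tested. It also enters the spread of the main fit, and with only the 5 arrays fitted the count called there remained 0. The 2 comparisons share the uninjected arrays, so the values are set side by side only and the difference between them was not tested. Of the 119 probe sets named by the rule in the processing notes, 12 were called there, 4 higher and 8 lower in knockdown hearts, and 0 in the present comparison. With more arrays the knockdown contrast had the smaller SE, for snrpf 0.16 against 0.21, so the 2 counts differ in power. Some of the 12 only just passed, such as orc6 (adjusted p of 0.0497, limma). snrpf, lsm6, psmd8 and orc6 differed by 0.77, 0.51, 0.42 and 0.81 with the control morpholino, and rose by 0.81, 0.77, 0.67 and 1.03 in the knockdown hearts. slc16a12b differed by -0.89 with the control morpholino, and by -1.24 in the knockdown hearts. For krt97 the values were -0.45 and -0.96, for muc5.2 -1.17 and -2.58, for fkbp5 -0.56 and -1.15, for bhlhe40 -0.31 and -0.71, for mef2aa -0.58 and -1.01, and for mef2d -0.44 and -1.12. The photoreceptor gene pde6hb was at 7.83 and 7.69 in control morpholino hearts, against 8.88, 7.14 and 8.77 in uninjected hearts, a difference of -0.51 (SE 0.68), and fell by 3.12 in the knockdown hearts. Each difference was smaller with the control morpholino than with the knockdowns in these 12, which were selected by the knockdown test.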

How the data were processed

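The authors deposited 1 linear intensity per probe set and array, computed with MAS5 per the submitters' processing notes, which give no version or scaling target. The 13 arrays' log2 intensities were quantile normalized with no pseudocount. Kept were probe sets that exceeded the 40th percentile of an array on 2 or more of the 13. Of the 15502 analysed, 10795 had 1 gene symbol in the platform annotation updated through the current gene table, 135 had several and 4572 had none. In limma 3.58.1, run in R 4.3.3, a mean per group was fitted over the 13 arrays and the prior variance followed the mean level (8 residual and 4.61 prior degrees of freedom). Two-sided p-values were adjusted by Benjamini-Hochberg over 10307 probe sets. No other tool was run on single probe sets.

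There were 33 lists of 1794 genes, 1185 of them on the array, and the brightest probe set on average stood for each gene. Lists were described by counts and medians, with no list test. The values of 1 list are not reported here. Named were, among probe sets with 1 symbol and a level of at least 4 on every array of a group, the 10 higher and the 10 lower ones of smallest p, up to 3 per list with the smallest p, and 13 stress, clock and autophagy genes. Marker genes, list members whose groups do not overlap and genes of wide range were named after their values were seen. The comparison, lists and named-gene rule were chosen with earlier results of these data known. The procedure was tested on simulated data. The replicate numbers 2 and 3, which both groups share, were not used to pair the samples in the main fit. The deviations of same-numbered arrays of these groups from their group means correlated at -0.41 and 0.05. The deviations of the 2 control morpholino arrays mirror each other, so these values cannot decide whether the numbers pair the samples. Between the knockdown groups, which add to the spread, the 7 same-numbered pairs correlated at 0.12 to 0.62. Precision is limited by how few arrays there are.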

Additional observations from a re-analysis of the deposited data

How the results depend on the processing

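The count of called probe sets was 0 under all 15 alternatives, with between 136 and 585 probe sets at an unadjusted p under 0.05 (without uninjected 3 and without uninjected 2). With the replicate number as a block the count was 0, with 520 at an unadjusted p under 0.05 against 266. The block moved the median of the cardiomyocyte list to 0.12 (against -0.25) and of the exocrine pancreas list to 0.17 (-0.41). Liver and yolk moved to 0.59 (0.06), endothelium and endocardium to 0.05 (-0.12) and smooth muscle to -0.09 (-0.29). Retina moved to -0.30 (-0.03) and intestine and pronephros to 0.11 (-0.23). The count of probe sets whose groups do not overlap, 1877 (1127 above and 750 below), ranged with 1 array left out from 2913 to 4815, with 1586 to 2625 above and 1262 to 2324 below, as fewer arrays have to be set apart. Without the filter it was 2869, with 1636 above and 1233 below, as more probe sets are tested. Without normalization 4 lay above and 1584 below (0.252% above, against 60%), 1 of 33 lists had a positive median against 14, and the median over all probe sets was -0.32. The control morpholino arrays were the dimmer ones on average. Over the lists and 15 alternatives, 43 medians moved by more than the spread between replicates and 452 did not. Left-out arrays turned the sign of the median of 14 of 33 lists. Of the 119 named differences, 26 changed sign under some alternative, 16 of them without normalization, and none was called under any.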
